A study of Homo sapiens with 5 samples.

Results

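The genes described are the 4 tropomyosins (TPM1 to TPM4) and a set of other actin filament-binding genes, namely CALD1 (caldesmon), the calponins CNN1, CNN2 and CNN3, and the transgelins TAGLN and TAGLN2. They are 10 of the 58174 genes listed in the deposited table, and each symbol matched 1 gene. The family was picked with its values in this comparison known, TPM4 above all, so the differences between groups given for these 10 genes are descriptions and carry no test. The gene symbols TPM1 to TPM4 are unrelated to the expression unit TPM, a length-scaled share of a library's transcripts that is always written after a number here.

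RNA was sequenced from Ishikawa cells, a line established from a human endometrial carcinoma. In 3 libraries (sh-LINC00958) the cells carried a lentiviral short hairpin RNA against the long non-coding RNA LINC00958, and in 2 libraries (sh-NC) a negative control. All cells grew in serum-containing RPMI medium and, per the labels' protocols, stably infected cells were screened with puromycin. The labels do not say how many hairpins or clones were used or whether the replicates were grown separately, so errors and p-values reflect only how far these samples vary, and part of that may be technical. LINC00958 itself stood at 67.2, 67.1 and 58.4 TPM in sh-LINC00958, against 119.3 and 137.4 TPM in sh-NC, so the target was lower in every silenced library. Endometrial epithelial markers were present, with summed levels of 2398 to 2573 TPM over 9 genes in sh-LINC00958 and 2419 to 2448 TPM in sh-NC, of which KRT18 rose and CLDN4 fell in limma.

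Tropomyosins are coiled-coil dimers that lie end to end along the actin filament and govern which other proteins, such as myosin motors and filament-severing cofilins, can act on it. Each tropomyosin gene makes several isoforms through alternative start sites and exons. Caldesmon binds actin, tropomyosin and myosin and restrains the myosin motor. Calponins and transgelins share a calponin homology domain and bind along actin filaments, with CNN1 and TAGLN best known as smooth muscle genes and CNN2, CNN3 and TAGLN2 present in many other cells. Several of these genes are known targets of serum response factor (SRF), which binds a DNA element called the CArG box.

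Promoter windows were read from RefSeq (GRCh38.p14) for 9 of the 10 genes, TAGLN being the one without an entry, and gave 19 annotated start sites, some of them in overlapping windows. In the 250 bases before each start, a CArG box (both strands, exact match to its consensus) was found in 2 windows, that of TPM4 start 1 and that of CNN2, against 1.16% of all 35116 RefSeq windows. The TPM4 windows are shown because this gene differed most between the groups, and the CNN2 window because it holds the only other match. Each is printed 5′ to 3′ on the gene's strand with the CArG box in capitals.
TPM4 start 1, chr19:16067288-16067537, plus strand: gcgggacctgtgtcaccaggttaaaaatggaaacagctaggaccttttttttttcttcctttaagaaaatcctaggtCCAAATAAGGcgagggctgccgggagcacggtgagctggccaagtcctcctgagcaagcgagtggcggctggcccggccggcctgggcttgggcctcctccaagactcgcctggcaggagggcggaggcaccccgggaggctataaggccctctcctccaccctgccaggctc
TPM4 start 2, chr19:16076245-16076494, plus strand: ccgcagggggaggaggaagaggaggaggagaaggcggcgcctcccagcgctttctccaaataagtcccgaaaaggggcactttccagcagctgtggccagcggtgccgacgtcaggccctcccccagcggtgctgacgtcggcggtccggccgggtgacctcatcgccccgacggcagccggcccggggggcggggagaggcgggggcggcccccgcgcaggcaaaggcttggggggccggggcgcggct
TPM4 start 3, chr19:16076766-16077015, plus strand: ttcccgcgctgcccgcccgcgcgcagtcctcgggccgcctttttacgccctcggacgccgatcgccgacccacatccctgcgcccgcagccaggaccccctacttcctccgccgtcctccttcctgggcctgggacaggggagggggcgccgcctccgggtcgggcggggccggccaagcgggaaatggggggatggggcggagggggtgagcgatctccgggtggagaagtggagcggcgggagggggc
CNN2, chr19:1026358-1026607, plus strand: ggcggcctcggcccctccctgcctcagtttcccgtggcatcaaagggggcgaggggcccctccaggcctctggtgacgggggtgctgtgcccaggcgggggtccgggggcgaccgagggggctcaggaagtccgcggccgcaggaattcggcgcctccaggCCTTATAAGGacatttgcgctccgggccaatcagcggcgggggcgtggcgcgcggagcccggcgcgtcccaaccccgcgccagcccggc

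The element CCAAATAAGG began 173 bases before TPM4 start 1 and CCTTATAAGG began 89 bases before the CNN2 start. All 3 TPM4 windows lie within the GENCODE span of the gene, since some annotated transcripts begin farther upstream. The downstream TPM4 starts 2 and 3 had no exact CArG box. Of other motifs searched on both strands, the AP-1 element TGANTCA was in 2 of the 19 windows (CALD1 and TAGLN2; 6.57% of all windows), the TEAD element GGAATG in 3 (CALD1 in a pair of windows and CNN3; 11.9%), the Sp1 element GGGCGG in 13 (68.4%, against 42.6% of all windows) and TATAAA in 1 (CALD1; 10.7%). These are letter matches in fixed windows and say nothing of whether a factor binds there. The gene-level values cannot show which start a transcript used.

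TPM4 was the member with the largest difference. This gene (ENSG00000167460; plus strand of chromosome 19, 16067021 to 16103005 in GRCh38; 24 GENCODE transcripts) encodes a tropomyosin of nonmuscle cells and platelets. Its level was 501.8, 544.4 and 493.2 TPM in sh-LINC00958 and 165.0 and 184.9 TPM in sh-NC. All 3 silenced libraries lay far above both controls and close to each other. The means were 513 ± 27.4 TPM in sh-LINC00958 and 175 ± 14.1 TPM in sh-NC (SD, n = 3 and 2), a ratio of 2.93. The fitted log2 fold change was 1.55 ± 0.0847 (SE; 95% interval 1.34 to 1.76; limma on log2(TPM + 1)). It lay between 1.47 and 1.63 when any 1 library was left out. Among all 17049 tested genes TPM4 ranked 33 by fitted log2 fold change. Among the 1704 genes with a mean of at least 100 TPM, TPM4 ranked 3. The pair ahead of it there, MIR1244-1 and BLOC1S5-TXNDC5, were listed at or near 0 in 1 of the control libraries only. Both ranks rest on the difference by which TPM4 was chosen.

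TPM1 (ENSG00000140416; plus strand of chromosome 15, 63042632 to 63071915; 34 transcripts), which supplies muscle as well as cytoskeletal tropomyosins, was higher by less. It had 84.7, 76.3 and 74.2 TPM in sh-LINC00958 and 57.0 and 48.0 TPM in sh-NC, with no overlap. The log2 fold change was 0.57 ± 0.11 (SE; 95% interval 0.30 to 0.84), from means of 78.4 ± 5.58 TPM in sh-LINC00958 and 52.5 ± 6.33 TPM in sh-NC. TPM2 (ENSG00000198467; minus strand of chromosome 9, 35681992 to 35690121), the tropomyosin best known from slow muscle, was scarce. It had 9.86, 11.0 and 13.3 TPM in sh-LINC00958 and 9.15 and 6.89 TPM in sh-NC, so the groups stood apart by less than 1 TPM. Its log2 fold change was 0.46 ± 0.177 (95% interval 0.027 to 0.90), and 0.28 without sh-NC replicate 2.

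TPM3 (ENSG00000143549; minus strand of chromosome 1, 154155304 to 154194648; 23 transcripts) encodes the other abundant nonmuscle tropomyosin and split the silenced libraries. Its level was 222.4, 67.2 and 67.1 TPM in sh-LINC00958 and 130.6 and 151.9 TPM in sh-NC. Replicate 1 of sh-LINC00958 was above both controls and replicates 2 and 3 were below both, so the groups overlapped. The log2 fold change was -0.49 ± 0.531 (95% interval -1.79 to 0.82) with all libraries. Without sh-LINC00958 replicate 1 it was -1.06 ± 0.111 (95% interval -1.34 to -0.77), and without replicate 2 or 3 it was -0.20 in each case. The within-group SD of TPM3 in sh-LINC00958 exceeded that of 99.2% of tested genes. Among the 10124 genes with a mean of at least 10 TPM, 5 had replicate 1 at least 3-fold above both other silenced libraries. The tropomyosins TPM4 and TPM1 did not show this split. Why the libraries differ for TPM3 was not tested.

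**Figure D1:**
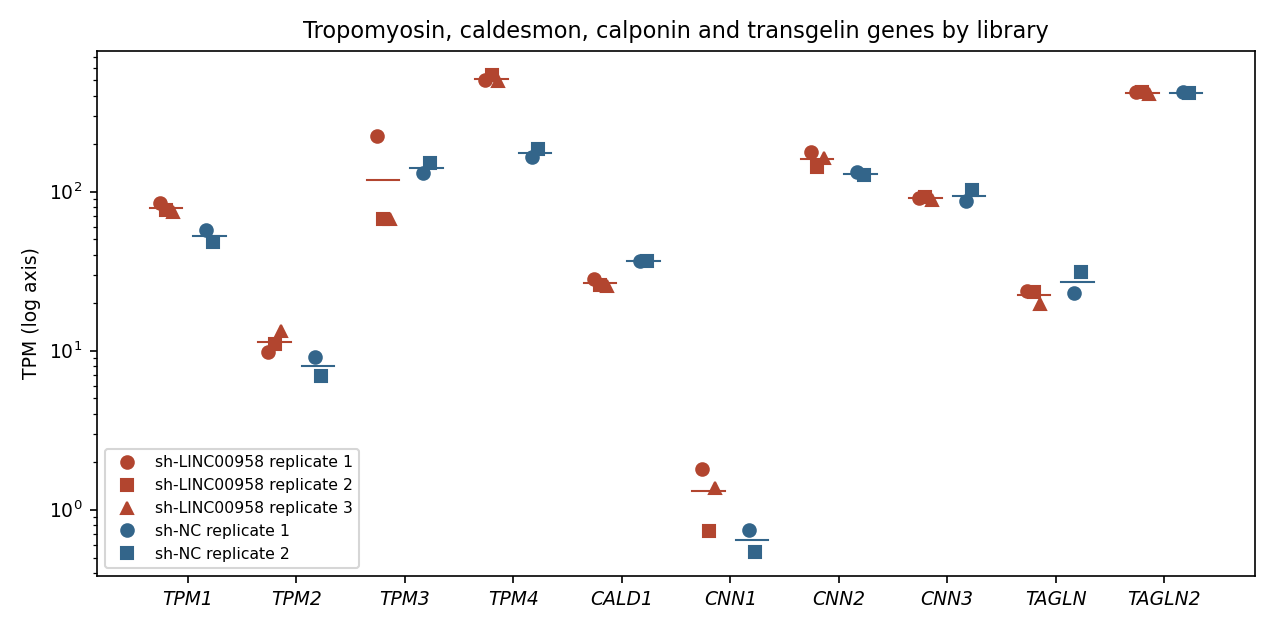
Level of each of the 10 genes in every library, in TPM on a log axis, with sh-LINC00958 libraries in red left of sh-NC libraries in blue and a line at each group mean. The TPM4 groups stand apart (493.2 to 544.4 TPM in sh-LINC00958 against 165.0 to 184.9 TPM in sh-NC), and TPM3 replicate 1 of sh-LINC00958 sits at 222.4 TPM, away from the other silenced libraries.

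Since TPM is a measure per transcript length, the 4 tropomyosin genes can be set against each other. Their summed level was 818.8, 698.9 and 647.9 TPM in sh-LINC00958 and 361.7 and 391.8 TPM in sh-NC. The sum was higher in each silenced library, at a mean of 722 ± 87.8 TPM in sh-LINC00958 against 377 ± 21.2 TPM in sh-NC. TPM4 alone accounted for 338 TPM of the 345 TPM between the means. The other 3 genes together summed to 209 ± 93.8 TPM in sh-LINC00958 and 202 ± 7.17 TPM in sh-NC.

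The make-up of the tropomyosin pool differed accordingly. TPM4 made up 61.3%, 77.9% and 76.1% of tropomyosin TPM in sh-LINC00958 and 45.6% and 47.2% in sh-NC. TPM3 made up 27.2%, 9.61% and 10.4% in sh-LINC00958 and 36.1% and 38.8% in sh-NC, so its share was lower in every silenced library. Among the other 3 genes alone, TPM3 made up 70.2%, 43.5% and 43.4% in sh-LINC00958 and 66.4% and 73.5% in sh-NC, so replicate 1 then lay within the control range. TPM1 took 10.3% to 11.5% in sh-LINC00958 and 12.3% to 15.7% in sh-NC, and TPM2 stayed under 3% throughout. TPM1 was thus more abundant in silenced cells while its share of the pool was smaller. The ratio of TPM4 to TPM3 was 2.26, 8.10 and 7.35 in sh-LINC00958 and 1.26 and 1.22 in sh-NC.

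**Figure D2:**
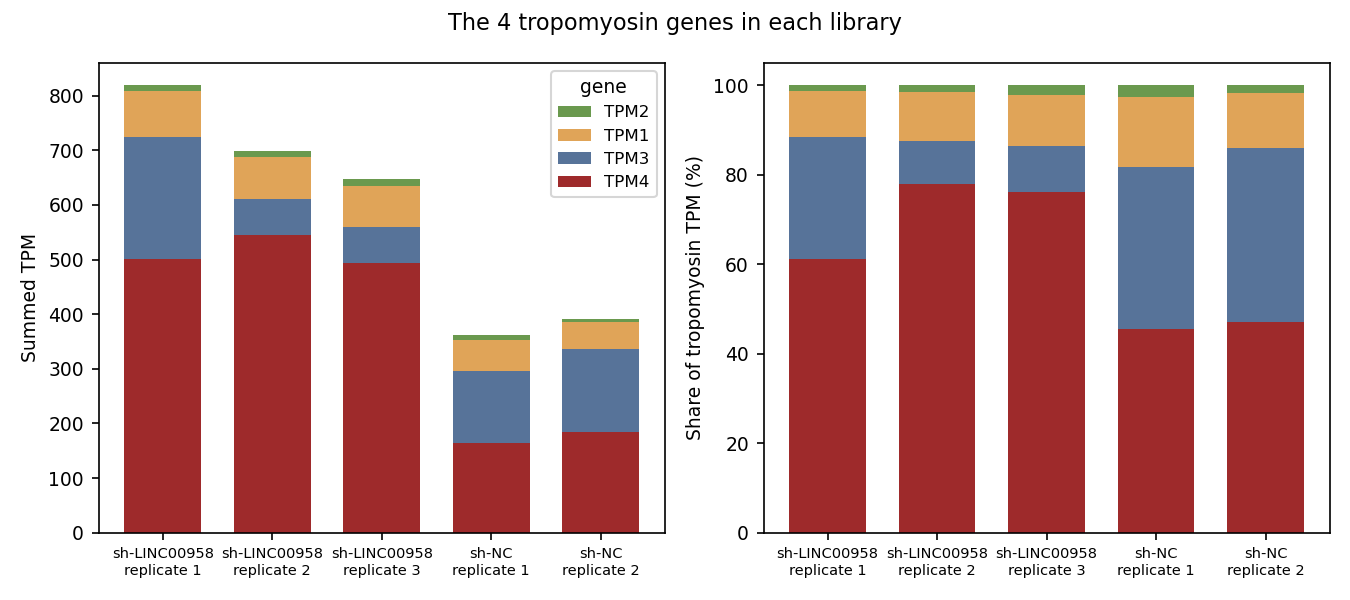
Stacked bars for the 4 tropomyosin genes in each library, as summed TPM on the left and as percent of the tropomyosin sum on the right, with sh-LINC00958 libraries left of sh-NC libraries. The TPM4 block grows from the base of each bar and reaches 61.3% to 77.9% in sh-LINC00958 against 45.6% to 47.2% in sh-NC.

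Caldesmon went the other way. CALD1 (ENSG00000122786; plus strand of chromosome 7, 134744252 to 134970728; 24 transcripts) had 28.1, 25.8 and 25.6 TPM in sh-LINC00958 and 36.4 TPM in each sh-NC library. The groups did not overlap and each was tight. The log2 fold change was -0.44 ± 0.0903 (95% interval -0.67 to -0.22), from means of 26.5 ± 1.40 TPM in sh-LINC00958 and 36.4 ± 0.0611 TPM in sh-NC. The ratio of TPM1 to CALD1 was 3.01, 2.96 and 2.90 in sh-LINC00958 and 1.57 and 1.32 in sh-NC.

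The calponins differed little. CNN2 (ENSG00000064666; plus strand of chromosome 19, 1026581 to 1039068), the calponin of nonmuscle cells, had 177.6, 143.6 and 161.8 TPM in sh-LINC00958 and 132.3 and 127.5 TPM in sh-NC. Its silenced libraries were all above the controls but spread more widely than the gap to them. The log2 fold change was 0.30 ± 0.105 (95% interval 0.045 to 0.56). CNN3 (ENSG00000117519; minus strand of chromosome 1, 94896949 to 94927278), the acidic calponin, had 91.8, 92.4 and 88.1 TPM in sh-LINC00958 and 87.1 and 101.9 TPM in sh-NC. The CNN3 groups overlapped, with a log2 fold change of -0.05 (95% interval -0.28 to 0.17) that changed sign with the control used, at -0.16 with sh-NC replicate 2 as the only control and 0.058 with replicate 1. CNN1 (ENSG00000130176; plus strand of chromosome 19, 11538717 to 11550323), the smooth muscle calponin, was close to absent at 1.79, 0.739 and 1.37 TPM in sh-LINC00958 and 0.743 and 0.543 TPM in sh-NC, with overlap.

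The transgelins did not separate the groups either. TAGLN2 (ENSG00000158710; minus strand of chromosome 1, 159918107 to 159925732), the transgelin of epithelial and blood cells, was the most abundant member in sh-NC. It had 424.5, 421.7 and 409.0 TPM in sh-LINC00958 and 425.4 and 414.3 TPM in sh-NC. Its log2 fold change was -0.0051 (95% interval -0.16 to 0.15), the narrowest interval of the 10 members in this fit. TAGLN (ENSG00000149591; plus strand of chromosome 11, 117199321 to 117204782), the smooth muscle transgelin, had 23.7, 23.4 and 19.7 TPM in sh-LINC00958 and 23.1 and 31.0 TPM in sh-NC. The groups overlapped, with a log2 fold change of -0.26 (95% interval -0.65 to 0.12). With control replicate 1 left out it was -0.47, and with control replicate 2 left out -0.056. Calponins and transgelins together summed to 694 ± 22.3 TPM in sh-LINC00958 and 672 ± 4.63 TPM in sh-NC.

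By level the order of the 10 genes was TPM4, TAGLN2, CNN2, TPM3, CNN3, TPM1, CALD1, TAGLN, TPM2 and CNN1 in sh-LINC00958. In sh-NC it was TAGLN2, TPM4, TPM3, CNN2, CNN3, TPM1, CALD1, TAGLN, TPM2 and CNN1. Of neighbours in the order, the ranges of TPM3 overlapped those of CNN2 and CNN3 in sh-LINC00958, and the ranges of TPM3 and CNN2 overlapped in sh-NC. All other neighbours had separate ranges. TPM4 thus stood above TAGLN2 in each silenced library and below it in each control library. TPM4 and TAGLN2 lay above 98.1% and 98.3% of tested genes in mean level over all 5 libraries, and CNN1 above 0.792%.

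All 10 genes passed the filter of a mean of at least 1 TPM, CNN1 only through its silenced libraries. In the limma fit over 17049 genes, 2 members were past an adjusted p of 0.05 as higher (TPM4 and TPM1), beside 4.12% of all tested genes, and 1 as lower (CALD1), beside 5.68%. Groups that did not overlap were seen for 4 members as higher (TPM1, TPM2, TPM4 and CNN2), beside 24.4% of tested genes, and for 1 as lower (CALD1), beside 25.5%, or 5 members in either direction beside 49.9%. Since the family was chosen on this contrast, nothing is read from these counts. The median log2 fold change was 0.15 over the 10 members and 0.0014 over all tested genes. Leaving out sh-LINC00958 replicate 1 gave TPM4 past the threshold as higher and TPM3 as lower, with CALD1 and TPM1 no longer past it. Leaving out replicate 2 added CNN2 to the members past it. With replicate 3 of sh-LINC00958 left out, TPM4 alone was past it. Over all tested genes, 36 were called higher and 51 lower without replicate 1 of sh-LINC00958. The counts were 904 and 1486 without replicate 2, and 112 and 145 without replicate 3. As the family was chosen on this contrast, nothing is read from the member calls in these fits.

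Fold changes in these libraries moved with the GC content of transcripts, which with exon length accounted for 22.01% of the variance of fold changes over 16999 genes. The median log2 fold change was -0.29 in the lowest of 4 equal bins of GC content and 0.18 in the highest. TPM4 transcripts had 48.0% GC and fell in bin 2 (median log2 fold change -0.06). After the GC and length trend was removed the TPM4 log2 fold change was 1.54, against 1.55 before, and TPM1 kept 0.52 of 0.57. CNN2, with 58.8% GC, went to 0.12, TPM2 to 0.28, CALD1 to -0.35, TAGLN to -0.43, TAGLN2 to -0.19 and CNN3 to 0.035. TPM4 alone of the members was past the threshold after the removal, beside 361 genes higher and 414 lower of all 17049 tested. As the family was chosen on this contrast, nothing is read from this.

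**Figure D3:**
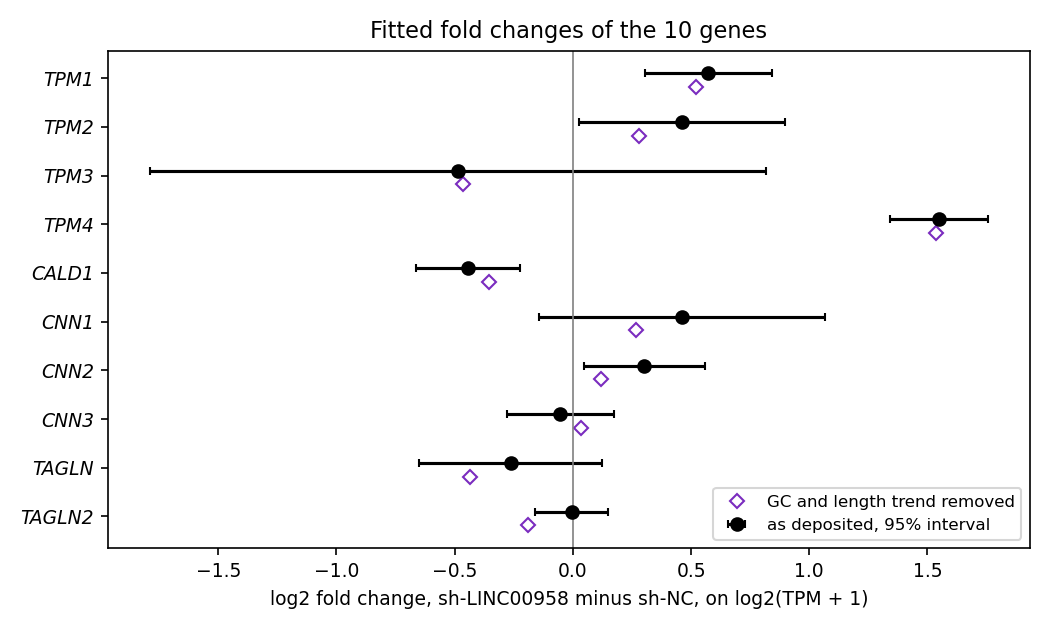
Fitted log2 fold change of each gene (sh-LINC00958 minus sh-NC, on log2(TPM + 1)) with its 95% interval in black, and the value with GC and length effects removed as open diamonds. TPM4 lies near 1.55 in both, CNN2 moves from 0.30 to 0.12, and the TPM3 interval runs from -1.79 to 0.82.

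Tropomyosin, calponin and transgelin genes have processed pseudogenes and antisense partners that could share reads with them, and neither the strand setting nor the handling of multiply mapped reads is given in the sources used here. Of the 50-base stretches of TPM4 transcripts in GENCODE release 29, 14.5% also occur in transcripts of other genes. Most of these lie in a transcript on the opposite strand (AC008894.3) and in the pseudogenes AC098614.1 and AF201337.1. These 3 rows stayed at or under 1.19 TPM in every library. AF201337.1 was listed at 1.13, 0.851 and 1.12 TPM in sh-LINC00958 and 0.0777 and 0.310 TPM in sh-NC. AC098614.1 was at 0.824, 1.19 and 0.925 TPM in sh-LINC00958 and 0.415 and 0.396 TPM in sh-NC. AC008894.3 overlapped, at 0.747, 0.464 and 0.491 TPM in sh-LINC00958 and 0.444 and 0.567 TPM in sh-NC. For TPM3 the shared portion was 3.27%, most of it with the pseudogenes AC243960.2 and AC026462.1, at or under 2.22 TPM in every library. TPM3P9, its most abundant named pseudogene, had 12.0, 10.9 and 10.2 TPM in sh-LINC00958 and 11.3 and 11.7 TPM in sh-NC. TPM3P9 shared only 0.011% of the TPM3 stretches, so its even level says nothing of reads shared with TPM3. TPM2, CALD1 and CNN3 shared none of their 50-base stretches. TPM1 had the highest shared portion, 20.0%, and CNN2 shared 8.51%. TPM1 overlaps the antisense gene TPM1-AS, which was under 0.51 TPM throughout. TAGLN overlaps 446 bases of exons of PCSK7, a protease gene on the opposite strand that had 44.0, 40.2 and 42.8 TPM in sh-LINC00958 and 28.7 and 28.5 TPM in sh-NC, so the TAGLN value is uncertain.

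The cells' identity bears on these genes, since CNN1, TAGLN and TPM2 are abundant in smooth muscle. Of 9 smooth muscle markers 4 passed the filter and none of them passed the limma test, with 3 higher and 0 lower at an unadjusted p under 0.05. In limma without its mean-variance trend, 2334 of all 17049 tested genes were higher and 2717 lower at that p, so nothing is read from the 3. Among the 3, ACTG2 passed the filter only through its silenced libraries, with 0.750 and 0.594 TPM in sh-NC. The 9 markers summed to 52.3 to 53.2 TPM in sh-LINC00958 and 34.3 to 42.7 TPM in sh-NC. Most of this came from SMTN, which epithelial cells can also express. MYOCD, the smooth muscle cofactor of SRF, was listed at 0 in all 5 libraries, MYH11 was at 0.444 to 0.676 TPM and DES at 1.68 to 2.46 TPM. Fibroblast markers summed to 5.59 to 6.23 TPM in sh-LINC00958 and 5.28 to 5.41 TPM in sh-NC, of which COL1A1 gave most, and DCN and VIM were listed at 0. Whether the exact zeros of MYOCD, DCN and VIM are true or failed estimates is unknown. In bulk RNA fewer cells of a type and less RNA per cell cannot be told apart.

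Genes with a profile most like that of TPM4 over the 5 libraries were sought by the root mean square difference of centred log2(TPM + 1). The closest were NIPSNAP1 (0.054), the microRNA precursor gene MIR5010 (0.0775), the palmitoyltransferase gene ZDHHC16 (0.113), the Mediator subunit gene MED11 (0.118) and TOMM22 (0.119), which encodes a receptor of the mitochondrial import pore. NIPSNAP1 had 103.8, 105.2 and 100.3 TPM in sh-LINC00958 and 31.3 and 34.0 TPM in sh-NC. TOMM22 had 223.0, 229.1 and 221.5 TPM in sh-LINC00958 and 85.2 and 94.4 TPM in sh-NC. MIR5010 passed the filter only through its silenced libraries, with 2.25, 2.73 and 2.21 TPM in sh-LINC00958 and 0.172 and 0.388 TPM in sh-NC. Its ratio of means was 8.56, against 2.93 for TPM4, so its match depends on the 1 added before the log. None of the 5 is a member or on a list of actin genes used here, and with 5 libraries in 2 groups the measure mostly reflects the size of the group difference.

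Along the chromosome, 52 tested genes lay within 100 kb of a member, of which 8 were called higher (15.4%, beside 4.12% of all tested genes) and 1 lower (1.92%, beside 5.68%) in limma. Those 8 had 52.8% to 62.8% GC. Over all genes, 361 of 4250 were called higher in the highest bin of GC content, 209 of 4249 in the bin below it and 43 of 4250 in the lowest. Whether the GC trend accounts for the share among neighbours was not tested. Near TPM4 the gene FAM32A, 82375 bases away, rose, with 132.7, 126.9 and 146.3 TPM in sh-LINC00958 and 67.1 and 70.6 TPM in sh-NC. RAB8A, a vesicle-traffic GTPase gene that is the nearest tested neighbour of TPM4 at 8624 bases, had 74.9, 67.3 and 70.9 TPM in sh-LINC00958 and 72.7 and 73.2 TPM in sh-NC. Near CALD1 the gene AGBL3 fell, at 2.02, 2.22 and 1.70 TPM in sh-LINC00958 and 3.72 and 4.50 TPM in sh-NC. The TPM2 region held 4 of the genes called higher, TLN1 among them.

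Other genes of the actin filament system were followed on 5 lists, of 94 tested genes in all, of which 11 rose and 10 fell at a limma adjusted p of 0.05 (22.3% called, beside 9.80% of all tested genes in either direction). The lists were drawn up with results of these data known, and the count moved with single libraries, as did calls over all tested genes. Without sh-LINC00958 replicate 1 there were 0 rises and 1 fall (36 and 51 over all tested genes). Without replicate 2 there were 12 and 14 (904 and 1486), and without replicate 3 there were 3 and 2 (112 and 145). At an unadjusted limma p under 0.05, leaving out sh-LINC00958 replicate 1 gave 18 and 10, beside 1736 and 2128 of all 17049 tested genes. Without the mean-variance trend that p gave 21 and 13, beside 2334 and 2717. The main fit's count over all tested genes at that p is not reported here, so nothing is read from single-list counts at it. With the GC and length trend removed, 3 list genes were called higher and 4 lower, beside 361 and 414 of all tested genes. Leaving out either sh-NC library leaves 1 control, so no count is read from those fits.

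Nonmuscle myosin II, the motor whose access to actin tropomyosin and caldesmon govern, had 18 tested genes with its regulators, of which 4 rose and 5 fell. This was 50% called, beside 9.80% of all tested genes, on a list drawn up with results of these data known. The heavy chain genes MYH9 (log2 fold change 0.38 ± 0.0717, SE, limma adjusted p = 0.0335) and MYH14 (0.65 ± 0.140) rose, as did the light chain gene MYL6 (0.35) and the GTPase gene RHOB (0.47). MYH9 had 181.4, 181.7 and 180.4 TPM in sh-LINC00958 and 133.4 and 145.0 TPM in sh-NC. The calmodulin gene CALM2 fell to 260 ± 15.6 TPM in sh-LINC00958, against 469 ± 48.8 TPM in sh-NC (log2 fold change -0.84 ± 0.0949, limma adjusted p = 0.0128). The myosin phosphatase catalytic subunit gene PPP1CB (-0.70) and the regulatory light chain gene MYL12A (-0.39) also fell. The list's median log2 fold change was -0.20. Once the GC and length trend was removed, 0 were called higher and 2 lower, CALM2 (-0.51) among them, beside 361 and 414 of all 17049 tested genes.

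Of 21 tested actin and filament turnover genes 2 rose and 2 fell (19.0% called, beside 9.80% of all tested genes), with a median log2 fold change of 0.03. LIMK1, the kinase that inactivates cofilins, had 74.3, 68.2 and 79.3 TPM in sh-LINC00958 and 37.0 and 38.0 TPM in sh-NC (log2 fold change 0.96 ± 0.0936, limma adjusted p = 0.0092). TMSB4X, which holds actin monomers, rose by 0.44. The filament-severing genes DSTN and CFL2 fell, DSTN to 80.4 ± 26.6 TPM in sh-LINC00958 against 184.6 ± 13.9 TPM in sh-NC (log2 fold change -1.23 ± 0.249, limma adjusted p = 0.038), and CFL2 by 0.52. As with TPM3, the DSTN level of sh-LINC00958 replicate 1 (110.7 TPM) was above those of replicates 2 and 3 (69.3 and 61.2 TPM), though below both controls. After the GC and length trend was removed, LIMK1 kept its call (0.77), DSTN stood at -1.03 (adjusted p = 0.0857) and CFL2 at -0.13 with neither called, and ACTG1, the cytoplasmic gamma-actin gene, was called lower (-0.37; -0.19 and adjusted p = 0.116 before).

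Of 20 tested crosslinker and membrane linker genes 3 rose and 0 fell in limma (15% called, beside 9.80% of all tested genes). Their median log2 fold change was 0.08, with 5 and 0 at an unadjusted p under 0.05, from which nothing is read. TLN1, which encodes the integrin-actin linker talin, had 95.8, 94.4 and 96.7 TPM in sh-LINC00958 and 67.4 and 64.2 TPM in sh-NC (log2 fold change 0.53 ± 0.0724, limma adjusted p = 0.0183). CTTN (cortactin, 0.51) rose as well. PALLD (palladin) had a log2 fold change of 0.26 and an adjusted p of 0.128. TLN1 alone was called after the GC and length trend was removed (0.36).

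Of 20 tested filament nucleators 0 rose and 3 fell in limma (15% called, beside 9.80% of all tested genes). Their median log2 fold change was -0.13, with 2 and 4 at an unadjusted p under 0.05, from which nothing is read. WASL, the N-WASP gene that switches on the Arp2/3 complex, had 13.5, 17.5 and 12.9 TPM in sh-LINC00958 and 36.6 and 36.8 TPM in sh-NC (log2 fold change -1.28 ± 0.148, limma adjusted p = 0.0133). The Arp2/3 subunit gene ARPC5 (-1.17 ± 0.204) and the formin gene DIAPH3 (-0.61 ± 0.132) fell too. ARPC4, another Arp2/3 subunit gene, had a log2 fold change of 0.23 and an adjusted p of 0.0934. WASL alone was called once the GC and length trend was removed.

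SRF and its partners and targets had 15 tested genes, of which 2 rose and 0 fell in limma (13.3% called, beside 9.80% of all tested genes). Their median log2 fold change was 0.17, with 7 and 1 at an unadjusted p under 0.05. Many of all tested genes passed that p in limma without the mean-variance trend (2334 higher and 2717 lower), so nothing is read from the 7 and 1. ACTG2, among the 7, passed the filter only through its silenced libraries. SRF had 32.9, 32.5 and 33.1 TPM in sh-LINC00958 and 23.6 and 21.4 TPM in sh-NC (log2 fold change 0.53 ± 0.0903, limma adjusted p = 0.028). CYR61, a matricellular target shared with YAP, had 130 ± 13.7 TPM in sh-LINC00958 and 59.4 ± 2.24 TPM in sh-NC (1.11 ± 0.108, limma adjusted p = 0.0089). AMOTL2 and CTGF had log2 fold changes of 0.41 and 0.35 and adjusted p of 0.065 and 0.101. With the GC and length trend removed CYR61 alone was called, and SRF stood at 0.34 (adjusted p = 0.0906).

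**Figure D4:**
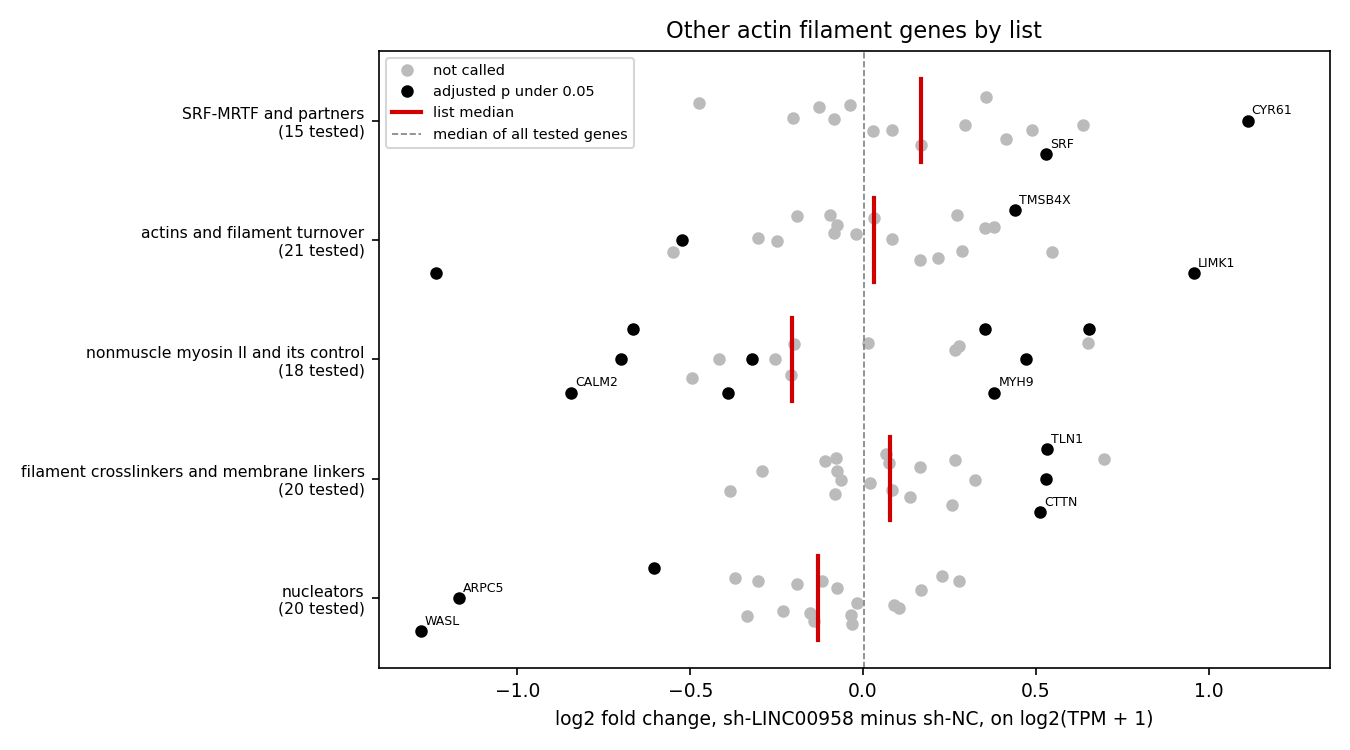
Fitted log2 fold change (sh-LINC00958 minus sh-NC, on log2(TPM + 1)) of the tested genes on 5 lists of the actin filament system, with called genes in black, the 2 with the smallest p on each list named, list medians in red and the median of all tested genes dashed. The lists hold between 15 and 21 tested genes, and the myosin list has calls on both sides, 4 higher and 5 lower.

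The authors' annotation column marks 248 tested genes as actin binding, 9 of the 10 members among them. Without those members it marks 239 tested genes, of which 16 were called higher and 13 lower in limma (12.1%, beside 9.80% of all tested genes), with a median log2 fold change of 0.02. Once the GC and length trend was removed the calls numbered 5 higher and 6 lower, beside 361 and 414 of all 17049 tested genes. Of 37 tested genes marked as stress fiber, TPM1, TPM3, TPM4 and CNN2 left out, 4 were called higher and 2 lower. This was 16.2%, beside 9.80% of all tested genes, with a median of 0.09. After the removal the calls numbered 2 and 1.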

How the data were processed

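The deposited values are TPM, computed by the authors per gene and library on GRCh38. Tools listed in the submitters' processing notes are StringTie 1.3.3b, HISAT2 2.0, Trimmomatic 0.36 and FastQC 0.11.2; the annotation release is not given in the sources used here. Depth is unknown, so no counting interval can be given, and each value is relative to its library's other RNAs.

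The 5 libraries were compared in R 4.3.3 by limma 3.58.1 fitted to log2(TPM + 1) (mean-variance trend, two-sided, Benjamini-Hochberg over 17049 genes with a mean of at least 1 TPM, threshold 0.05), without further scaling. The fit was tested on simulated data. Fold changes on this scale understate those of low genes. GC content and exon length came from GENCODE release 29, and their trend was fitted per library with splines. Alternatives were other pseudocounts, filters and scalings, no trend, a replicate block and each library left out.

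The members and lists were chosen with earlier results of these data known. Named genes are the 10 members, the 4 genes of each list with the smallest p, other called list genes, and the 5 profiles closest to TPM4. Some called list genes stay in the counts but are not reported here by name. ACTG1, ACTG2, the neighbouring genes, the overlapping and pseudogene rows, PCSK7 and the annotation sets were chosen after values were seen.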

Additional observations from a re-analysis of the deposited data

How the results depend on the processing

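Across 14 alternatives the TPM4 log2 fold change lay between 1.47 and 1.63. The TPM1 and CALD1 log2 fold changes kept their sign in all 14 (0.45 to 0.69 and -0.49 to -0.35). Those of CNN3 and TAGLN2 changed sign in 2 and 4. Genes called higher and lower numbered 702 and 969, against 207 and 269 with no filter, 371 and 518 without the trend, 361 and 414 with the GC and length trend removed, and 10 to 904 and 6 to 1486 with 1 library left out. List genes called numbered 11 and 10, against 3 and 2, 4 and 3, 3 and 4, and 0 to 12 and 1 to 14 in the same order. Members called numbered 2 and 1, against 1 and 0 under each of the first 3 and 1 to 3 and 0 to 1 with 1 sh-LINC00958 library left out. At an unadjusted p under 0.05, limma without the filter gave 3 members higher and 1 lower, beside 2923 and 3393 of all genes then tested. Without the trend that p gave 3 and 1 members, beside 2334 and 2717 genes. With the GC and length trend removed it gave 2 and 3, beside 1923 and 2187. Nothing is read from these member counts. Other pseudocounts, a higher filter and other scalings moved none of these counts by over 1.5 times.

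The replicate numbers 1 and 2 occur in both groups, but nothing says that they mark a shared batch. Deviations from the group means correlated over genes at 0.0013 for number 1 and 0.0497 for number 2. The unmatched pair of sh-LINC00958 replicate 3 and sh-NC replicate 1 had 0.0483. With 2 controls the deviations of each mirror those of the other, so these values cannot tell whether a batch was shared. With the replicate number as a block, limma called 0 genes higher and 2 lower, of the lists 0 and 0, and of the members 0 and 0. At an unadjusted p under 0.05 the replicate block gave 2000 and 2213 genes, 19 and 14 list genes, and 2 and 1 members.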
